A study of Danio rerio with 10 samples.

Results

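The genes described here encode the UDP-glucuronosyltransferases (UGT) and the cytosolic sulfotransferases (SULT), the enzyme families that attach glucuronic acid or sulfate to small molecules. A gene was included when its zebrafish symbol began with ugt1, ugt2, ugt5, ugt8 or sult, whatever the case of the letters, and *ugt2a5* was left out. This gave 48 of the 32520 genes in the data, 29 of them UGT genes and 19 of them SULT genes. The rule uses names alone, but it was set with earlier results of these data known.

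Glucuronidation and sulfation are conjugation reactions that make lipophilic compounds more soluble in water, so that they can be carried out of the cell and excreted in bile or urine. UGT enzymes sit in the membrane of the endoplasmic reticulum and use UDP-glucuronic acid, whereas SULT enzymes work in the cytosol and use the activated sulfate donor PAPS. Liver, intestine and kidney are the tissues best known for both reactions, and their substrates include bilirubin, steroid and thyroid hormones, bile acids and many drugs. The ugt5 family is described in fish and is not found in mammals.

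At 120 hpf, untreated whole larvae were pooled by clutch, 50 to a library, and their RNA was sequenced for 5 clutches per genotype, *aldh2.1*-/- mutants and *aldh2.1*+/+ controls. Both genotypes were raised on the *Tg(fli1:EGFP)* background, in which an endothelial promoter drives a green fluorescent protein, and the mutants came from 1 selected CRISPR/Cas9 deletion allele in exon 3 of *aldh2.1*, the gene of a mitochondrial aldehyde dehydrogenase. The study sequenced these libraries to look for pathways that differ in the mutants, and here the comparison is read for the conjugation genes. The clutches of both genotypes are numbered 1, 2, 3, 5 and 6, and values below are given in that order.

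Library totals were between 19792930 and 20703518 estimated reads. *aldh2.1*, listed under the symbol ALDH2, was at 1.86 to 4.42 TPM (a level scaled for transcript length and for the library's total) in the 5 mutant libraries and at 6.06 to 7.10 TPM in the 5 *aldh2.1*+/+ libraries, a log2 fold change of -1.27 ± 0.21 (SE) with an adjusted p of 0.134 in edgeR and of 3.2e-05 in DESeq2. The related gene *aldh2.2* was at 1.02 to 1.31 TPM in mutants against 7.32 to 9.57 TPM (adjusted p = 2.08e-07, edgeR), so the libraries of the genotypes were separated at both genes. Reads of such similar copies can be divided unevenly between them by the quantifier.

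Most of the conjugation genes were weakly expressed in whole larvae. Of the 48 genes, 24 had a mean level under 1 TPM over the 10 libraries and 4 were above 10 TPM. The 4 were *sult4a1* at 24.9 TPM, *sult6b1* at 24.0 TPM, *ugt1a1* at 21.1 TPM and *sult2st2* at 17.5 TPM (*sult4a1*, *ugt1a1* and *ugt8* are listed with capital letters, as SULT4A1, UGT1A1 and UGT8). The entry listed as *ugt1a1* alone held 32.9% of the summed TPM of the UGT genes. Whether it also holds reads of other ugt1a genes is not known. *sult4a1*, *sult6b1* and *sult2st2* together held 73.3% of the summed TPM of the SULT genes. The next levels belonged to *ugt1b5* (6.95 TPM), *ugt2a4* (5.86 TPM), *sult1st1* (4.89 TPM) and *sult1st6* (4.87 TPM). The last pair lay closer together than the spread of either gene between clutches, as did *sult4a1* and *sult6b1*.

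**Figure D1:**
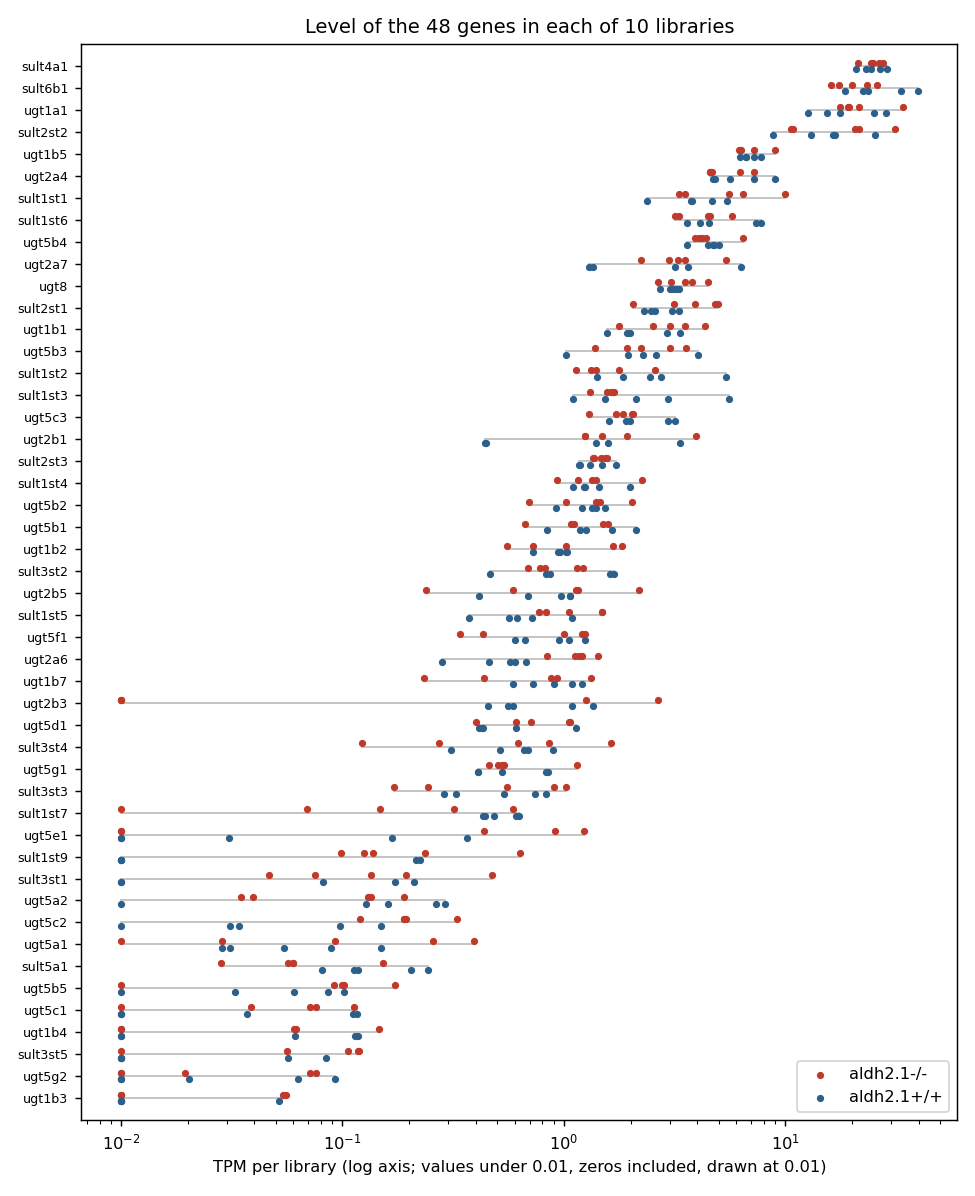
Level of each of the 48 genes in TPM, on a log axis, with 1 point per library (red, *aldh2.1*-/-; blue, *aldh2.1*+/+) and a grey line from the lowest to the highest library. The 4 genes above 10 TPM stand at the top, and the points of both genotypes are interleaved for nearly every gene.

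The expression filter of edgeR kept 32 of the 48 genes, 19 UGT and 13 SULT genes, and it removed 16 for low counts (10 UGT and 6 SULT genes, with mean levels of 0.0161 to 0.796 TPM and mean estimated counts of 0.474 to 9.84). None of the 16 was at 0 in every library. Among the untested genes, *sult5a1* was listed at 0.0596, 0.0565, 0.152, 0.0282 and 0.0599 TPM in mutants and at 0.205, 0.244, 0.0806, 0.113 and 0.118 TPM in *aldh2.1*+/+ larvae. *ugt5a2* ranged from 0.0348 to 0.189 TPM in mutants and from 0 to 0.292 TPM in *aldh2.1*+/+ larvae. *ugt5e1* was at 1.23, 0.436 and 0.912 TPM in mutant clutches 1 to 3 and at 0 in mutant clutches 5 and 6, against 0 to 0.366 TPM in *aldh2.1*+/+ larvae.

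In the comparison of genotypes, no conjugation gene passed the adjusted threshold of 0.05 in the edgeR quasi-likelihood test, against 0.00929% of all 21532 genes tested (2 genes). DESeq2 on 48 genes and limma on the 32 called 0 as well, with 6 and 2 genes at an unadjusted p under 0.05. Over all genes, DESeq2 called 24 of 29075 at the adjusted threshold. With a pseudocount of 1, limma called 2 of 21532 and marked 887 at an unadjusted p under 0.05. The 6 genes of DESeq2 were a larger share of the 48 than its unadjusted count was of all 29075 genes. This difference in shares was not tested. At an unadjusted p under 0.05 the edgeR test marked 5 of the 32 genes, where 5.04% of all genes were marked. Of the 5, 1 was higher in mutants (2.83% of all genes) and 4 were lower (2.21% of all genes). The log2 fold change was above 0 in 16 genes and below 0 in 16 (52.1% of all genes were above 0), with a median of 0.00 and a range of -0.81 to 1.06, next to a median of 0.01 over all genes. By family, 10 of 19 UGT genes and 6 of 13 SULT genes were above 0. The count of 5 depended on single libraries, and so did the count over all genes, 1086 in the main fit. It was 1 without *aldh2.1*+/+ clutch 1 (808 of all 21728 genes tested) and 2 without mutant clutch 2 (842 of 21727). It was 3 without mutant clutch 6 (1483 of 21745) and 3 without *aldh2.1*+/+ clutch 2 (826 of 21725). Without either library numbered 1, an alternative chosen after seeing the data, it was 3 (640 of 21527).

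**Figure D2:**
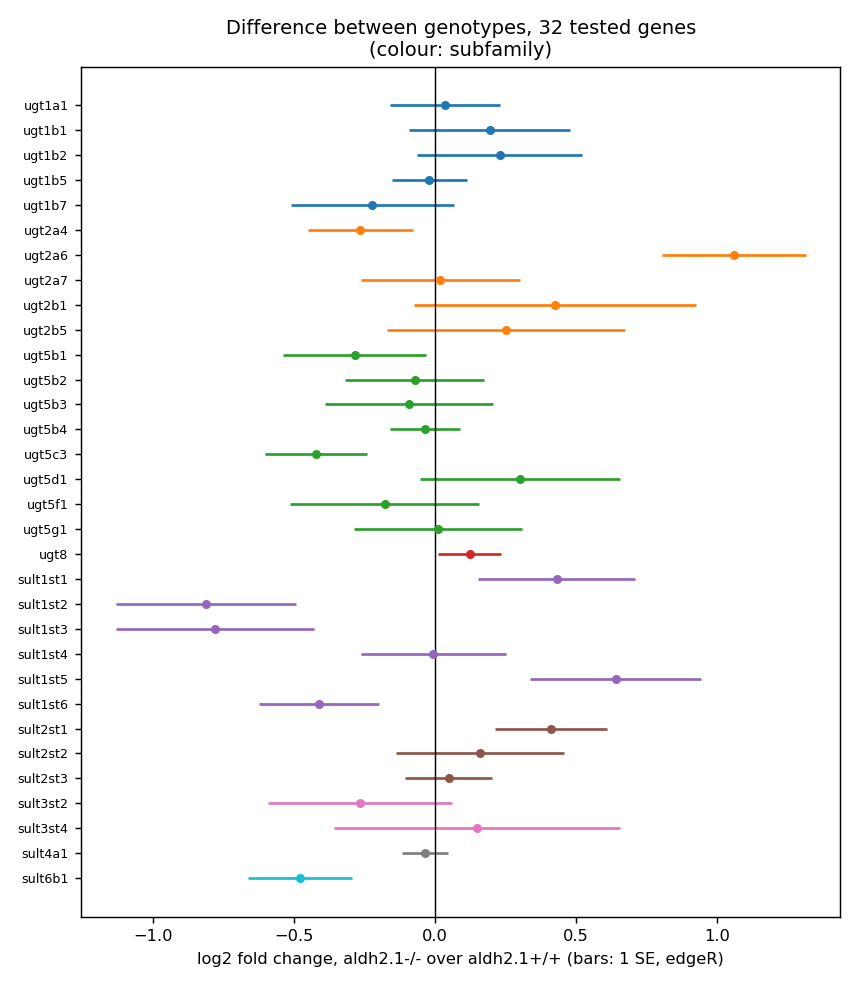
Log2 fold change of the 32 tested genes, *aldh2.1*-/- over *aldh2.1*+/+, ordered and coloured by subfamily, with bars of 1 SE from edgeR. The points lie between -0.81 (*sult1st2*) and 1.06 (*ugt2a6*), with 16 on each side of 0.

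The measured spread between clutches of the same genotype was wider for the conjugation genes than for genes in general. This spread includes sampling of reads, which weighs more at low counts, and the genes compared were not matched for counts. Mean estimated counts of the 32 tested genes ran from 14.3 to 1239. CPM values are counts scaled to the library's total after its correction by a normalization factor (TMM). The median within-genotype SD of log2 CPM was 0.42 over the 32 genes and 0.22 over all genes tested. Among the 32 genes the SD ran from 0.13 in *sult4a1* to 0.92 in *ugt2b1*. A wide spread was not particular to the conjugation genes. For the tissue markers described below, the same median was 0.39 in hepatocyte, 0.57 in enterocyte and 0.38 in pronephros (larval kidney) markers. It was 0.20 in oligodendrocyte and myelin markers and 0.15 in neuron markers. The clutches also ranked alike across the genes. Mutant clutch 1 was the highest mutant library for 17 of the 32 genes, where it was the highest for 28.3% of all genes, and the lowest for 1 gene (28.5% of all genes). *aldh2.1*+/+ clutch 1 was the highest of its genotype for 17 of the 32, where it was so for 21.2% of all genes, and the lowest for 1 gene (19.8% of all genes). Mutant clutch 5 was the lowest mutant library for 12 genes (23.7% of all genes) and the highest for 3 (24.5% of all genes). *aldh2.1*+/+ clutch 5 was the lowest of its genotype for 16 genes (20.2% of all genes) and the highest for 2 (20.5% of all genes). The genes' median deviation from the genotype mean was 0.34 in mutant clutch 1, 0.41 in *aldh2.1*+/+ clutch 1, -0.23 in mutant clutch 5 and -0.34 in *aldh2.1*+/+ clutch 5, on the log2 scale, whereas the median over all genes stayed within 0.01 of 0. Many of these genes share reads or a tissue, so they are not independent of each other. Over all genes, the deviations of same-numbered clutches did not correlate in every pair, and whether the libraries numbered 1 share a day or a parent is not known.

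**Figure D3:**
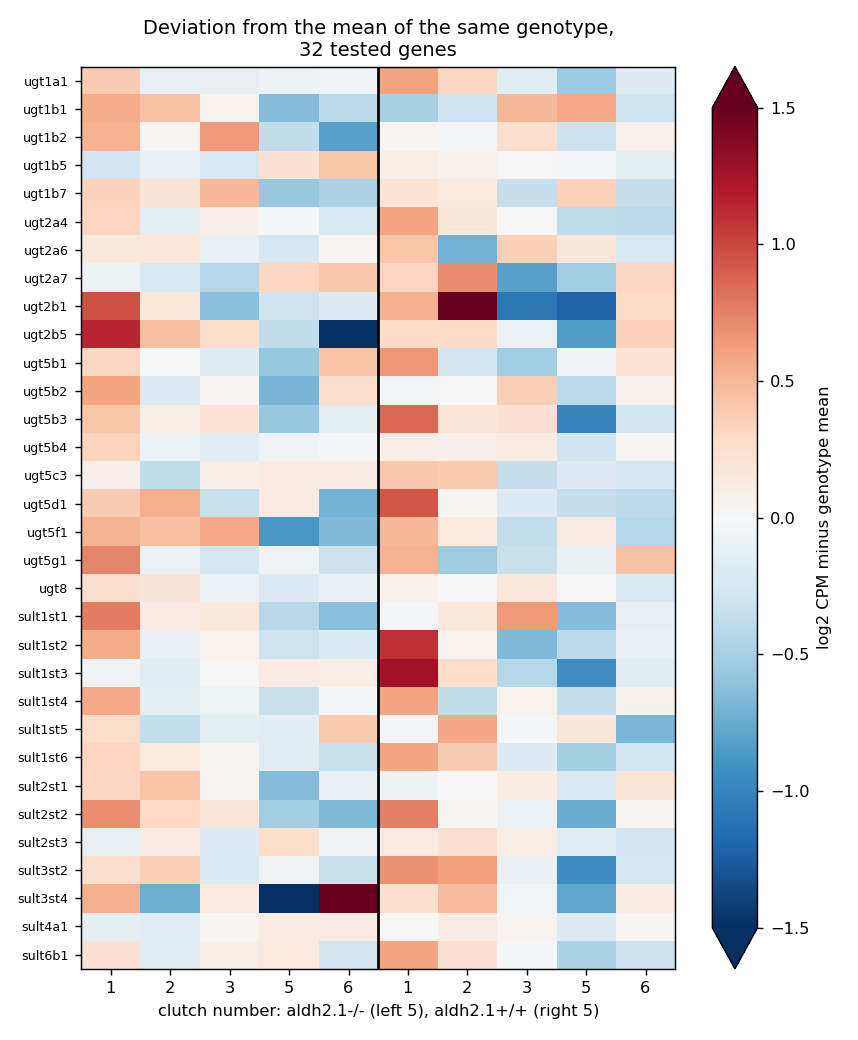
Log2 CPM of the 32 tested genes minus the mean of the same genotype, for mutant clutches 1, 2, 3, 5 and 6 (left) and *aldh2.1*+/+ clutches 1, 2, 3, 5 and 6 (right), with colours limited to 1.5 in either direction. The columns of both clutches 1 are mostly red, with 17 genes highest there, and those of both clutches 5 mostly blue.

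The same order of clutches was seen in the summed levels. The UGT genes summed to 93.8, 59.7, 67.4, 51.1 and 60.3 TPM in mutants (66.5 ± 16.3, SD, n = 5) and to 78.6, 75.0, 52.2, 46.6 and 56.3 TPM in *aldh2.1*+/+ larvae (61.7 ± 14.2, SD, n = 5). The SULT genes summed to 116.7, 83.3, 97.6, 71.8 and 73.0 TPM in mutants (88.5 ± 18.9, SD, n = 5) and to 122.5, 107.9, 80.5, 64.2 and 88.0 TPM in *aldh2.1*+/+ larvae (92.6 ± 22.9, SD, n = 5). Both sums overlapped widely between genotypes, and their means differed by less than the spread between clutches. In whole larvae, fewer cells of a type and less RNA per cell cannot be told apart.

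Summed markers of the tissues that carry these enzymes moved with the clutches too. The 12 hepatocyte markers summed to 1117, 728, 778, 681 and 785 TPM in mutants and to 1254, 1358, 812, 705 and 801 TPM in *aldh2.1*+/+ larvae. Most of that sum came from *fabp10a* (mean 599 TPM) and *tfa* (mean 184 TPM). In mutants, *cp* and *ahsg1* were highest in clutch 6, at 26.6 and 3.49 TPM against 14.1 and 2.11 TPM in clutch 1. The other hepatocyte markers were highest in mutant clutch 1. The 17 enterocyte markers summed to 688, 526, 624, 503 and 572 TPM in mutants and to 1487, 1062, 572, 418 and 690 TPM in *aldh2.1*+/+ larvae. Several abundant enterocyte markers were not highest in mutant clutch 1. Among mutants, *fabp2* (176 against 174 TPM in clutch 1) and both genes listed as *rbp2* were highest in clutch 3. *apoa4b.1* (72.2 against 66.9 TPM) and *apoa4b.2* (50.1 against 44.9 TPM) were highest in clutch 2. *chia.2*, *vil1* and most markers at lower levels were highest in clutch 1. The 13 markers of the pronephros tubule, the larval kidney, summed to 134 to 217 TPM in mutants and to 127 to 200.5 TPM in *aldh2.1*+/+ larvae. Some marker symbols matched several genes listed under the same name, and all of these were counted. The 12 hepatocyte, 17 enterocyte and 13 pronephros genes came from 11, 13 and 11 symbols. *aldh2.1*+/+ clutches 1 and 2 were thus the highest 2 libraries for the sums of the liver and gut lists, and mutant clutch 1 was the highest mutant library for the sums of all 3 lists. The log2 fold change was below 0 in 8 of 12 hepatocyte, 12 of 16 tested enterocyte and 6 of 13 pronephros markers (10314 of all 21532 genes tested). None passed the adjusted threshold, and 1, 2 and 1 of them had an unadjusted p under 0.05 in edgeR (5.04% of all genes). These were *fabp10a* (log2 fold change -0.50), *apoa4b.2* (-1.05) with 1 gene listed as *rbp2* (-0.48), and 1 gene listed as *slc4a4* (-0.29). Markers of neurons (1208 to 1549 TPM) and of oligodendrocytes and myelin (217 to 341 TPM) did not follow this order, and no marker of the 5 lists was at 0 in all libraries. The part of tissue content in the results below was not tested.

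**Figure D4:**
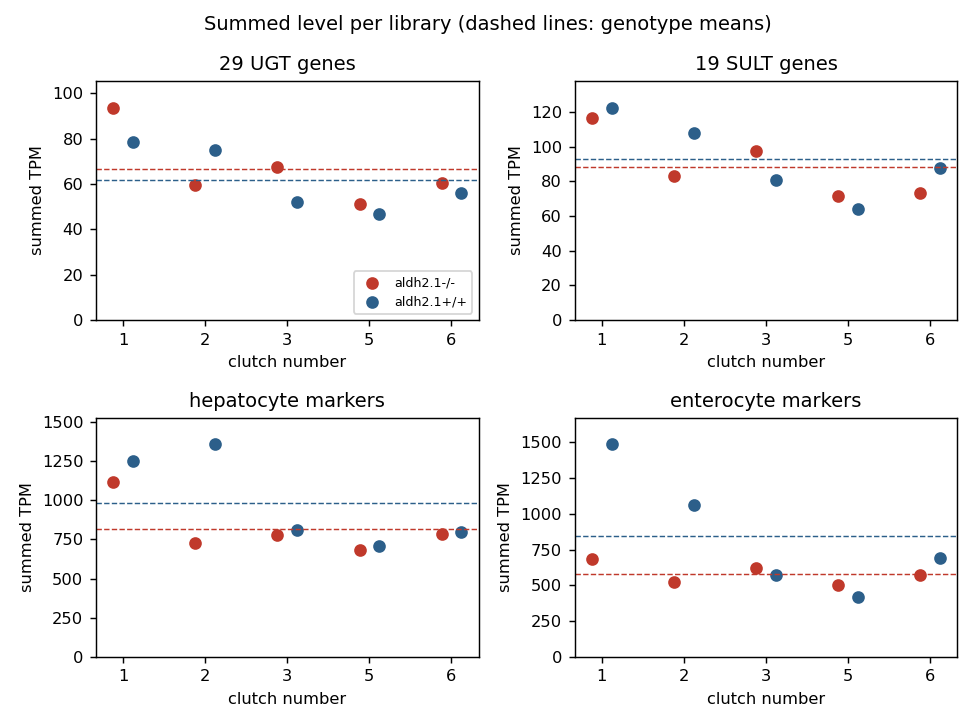
Summed TPM per library of the 29 UGT genes, the 19 SULT genes, the 12 hepatocyte markers and the 17 enterocyte markers, by clutch number (red, *aldh2.1*-/-; blue, *aldh2.1*+/+; dashed lines, genotype means). Clutch 1 is high in all 4 panels in both genotypes, and *aldh2.1*+/+ clutches 1 and 2 stand above every mutant library in the enterocyte panel, at 1487 and 1062 TPM.

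The UGT1 enzymes, known in mammals for the conjugation of bilirubin and phenols, were represented mainly by *ugt1a1*, the only entry with a ugt1a name. RefSeq names further ugt1a genes, and this entry may hold reads of several of them. It measured 33.9, 19.4, 21.5, 17.6 and 19.1 TPM in mutants and 28.6, 25.1, 15.5, 12.6 and 17.7 TPM in *aldh2.1*+/+ larvae. Clutch 1 was the highest library in both genotypes, and the genotypes overlapped, with a log2 fold change of 0.04 ± 0.19 (SE, edgeR adjusted p = 0.983) that turned negative when mutant clutch 1 or any of *aldh2.1*+/+ clutches 3, 5 and 6 was left out. *ugt1b5* was at 6.22, 6.21, 6.32, 7.22 and 8.97 TPM in mutants and at 7.26, 7.76, 6.25, 6.65 and 6.65 TPM in *aldh2.1*+/+ larvae. It was steadier than *ugt1a1*, with a within-genotype SD of 0.23 on the log2 scale against 0.36, and in mutants its highest library was clutch 6 and not clutch 1. Its log2 fold change of -0.02 ± 0.13 (SE) changed sign under several alternatives. Of the 4 ugt1b genes tested, 2 were above and 2 below 0, all with adjusted p over 0.05.

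The UGT2 enzymes conjugate steroids and bile acids in mammals. *ugt2a6* was the gene with the clearest difference between genotypes, at 1.43, 1.21, 1.17, 0.843 and 1.12 TPM in mutants and at 0.676, 0.282, 0.603, 0.573 and 0.457 TPM in *aldh2.1*+/+ larvae. Every mutant library lay above every *aldh2.1*+/+ library. It was the only one of the 32 tested genes whose libraries did not overlap between genotypes, where 0.725% of all genes tested showed no overlap. The log2 fold change was 1.06 ± 0.26 (SE), with an unadjusted p of 0.00116 and an adjusted p of 0.809 in edgeR, and the two-sided exact permutation test gave p = 0.00794, the smallest that 5 against 5 libraries allow. Leaving out each library in turn gave 0.90 to 1.18 on the log2 scale, and the adjusted p ran from 0.138 to 1.00 over the alternatives that kept the gene. It was not tested when at least 10 counts were required in every library. The gene was a low one, with estimated counts of 37.8, 34.7, 29.9, 24.0 and 29.9 in mutants and 19.4, 7.76, 17.8, 16.1 and 11.6 in *aldh2.1*+/+ larvae.

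The estimated counts of *ugt2a6* were not whole in any library by an exact check, although that of mutant clutch 5 rounds to 24.0. Such fractions occur when a quantifier divides reads that match several genes. The other ugt2a genes overlapped between genotypes. *ugt2a4*, the most abundant ugt2a gene, was at 7.21, 4.55, 6.24, 4.69 and 4.57 TPM in mutants and at 8.96, 7.20, 5.65, 4.79 and 4.70 TPM in *aldh2.1*+/+ larvae, with a log2 fold change of -0.26 ± 0.19 (SE, edgeR adjusted p = 0.921). *ugt2a7*, named here after its values were seen, was at 3.48 ± 1.17 TPM in mutants and 3.15 ± 2.06 TPM in *aldh2.1*+/+ larvae (SD, n = 5). The 3 ugt2a genes summed to 10.1 ± 1.69 TPM in mutants and to 9.93 ± 3.34 TPM in *aldh2.1*+/+ larvae (SD, n = 5), so their sum differed by less than the spread between clutches. *ugt2a6* gave a mean of only 1.16 TPM of this sum in mutants and 0.518 TPM in *aldh2.1*+/+ larvae. A difference of that size could not be seen in the sum.

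*ugt2b1* had the widest spread of all tested genes of the family. It was at 3.96, 1.93, 1.24, 1.24 and 1.49 TPM in mutants and at 1.58, 3.36, 0.444, 0.44 and 1.40 TPM in *aldh2.1*+/+ larvae. A single library was high in each genotype, clutch 1 in mutants and clutch 2 in *aldh2.1*+/+ larvae, and the log2 fold change was 0.43 ± 0.50 (SE, edgeR adjusted p = 0.936).

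Of the 15 ugt5 genes, 8 were tested, with 2 above and 6 below 0. *ugt5c3* had the smallest p among them. It was at 2.06, 1.30, 2.04, 1.72 and 1.84 TPM in mutants and at 2.96, 3.19, 1.60, 1.91 and 1.99 TPM in *aldh2.1*+/+ larvae. *aldh2.1*+/+ clutches 1 and 2 stood above all mutant libraries and the other 3 lay among them. This gave a log2 fold change of -0.42 ± 0.18 (SE), with an unadjusted p of 0.0373, an adjusted p of 0.921 in edgeR, and an exact permutation p of 0.0714. With 1 library left out, the unadjusted edgeR p ran from 0.0181 (without *aldh2.1*+/+ clutch 3) to 0.111 (without *aldh2.1*+/+ clutch 2).

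The other tested ugt5 genes overlapped between genotypes. The most abundant one, *ugt5b4*, was at 6.45, 4.08, 4.39, 3.92 and 4.21 TPM in mutants and at 4.70, 5.03, 4.47, 3.58 and 4.78 TPM in *aldh2.1*+/+ larvae, a log2 fold change of -0.03 ± 0.12 (SE). *ugt5d1* ranged from 0.399 to 1.07 TPM in mutants and from 0.414 to 1.13 TPM in *aldh2.1*+/+ larvae, and *ugt5f1* from 0.338 to 1.24 and from 0.601 to 1.24 TPM. *ugt5g1* was at 0.458 to 1.15 TPM and at 0.411 to 0.85 TPM. For these 3 genes the log2 fold changes were 0.30, -0.18 and 0.01, each smaller than its SE of 0.36, 0.34 and 0.30.

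*ugt8* encodes a ceramide galactosyltransferase, which makes a main lipid of myelin and uses UDP-galactose in place of UDP-glucuronic acid. It was at 4.50, 3.79, 3.51, 2.65 and 3.04 TPM in mutants and at 3.21, 3.32, 3.11, 3.00 and 2.73 TPM in *aldh2.1*+/+ larvae, so that the *aldh2.1*+/+ libraries lay within the range of the mutants. Its log2 fold change was 0.12 ± 0.11 (SE, edgeR adjusted p = 0.923). The 10 markers of oligodendrocytes and myelin summed to 271 ± 47.3 TPM in mutants and 240.4 ± 20.1 TPM in *aldh2.1*+/+ larvae (SD, n = 5).

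Among the sulfotransferases, the sult1 genes, whose mammalian relatives sulfate phenols, estrogens and thyroid hormones, held 2 of the 3 SULT genes at an unadjusted p under 0.05. *sult1st2* was at 2.59, 1.40, 1.77, 1.14 and 1.33 TPM in mutants and at 5.38, 2.76, 1.41, 1.85 and 2.45 TPM in *aldh2.1*+/+ larvae. *sult1st3* was at 1.63, 1.31, 1.69, 1.57 and 1.67 TPM in mutants and at 5.57, 2.95, 1.53, 1.10 and 2.12 TPM in *aldh2.1*+/+ larvae. In both genes *aldh2.1*+/+ clutch 1 was higher than any other library, clutch 2 of the same genotype came next, and the remaining libraries overlapped.

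The log2 fold change of *sult1st2* was -0.81 ± 0.32 (SE), with an unadjusted p of 0.0256 and an adjusted p of 0.921 in edgeR, and that of *sult1st3* was -0.78 ± 0.35 (SE), with an unadjusted p of 0.046 and the same adjusted p. The exact permutation p was 0.0556 and 0.19. Without *aldh2.1*+/+ clutch 1, the highest library of both genes, the log2 fold changes were -0.42 and -0.31. The unadjusted edgeR p values were then 0.097 and 0.214. These were the largest edgeR p values with 1 library left out. The smallest were 0.0097 for *sult1st2* (without *aldh2.1*+/+ clutch 3) and 0.00943 for *sult1st3* (without *aldh2.1*+/+ clutch 5). RefSeq places both genes in a group of 5 near neighbours with *sult1st1*, *sult1st7* and *sult1st9*, and 2 other genes lie within the group. The estimated counts of *sult1st2* were not whole in any library. Their summed level was 3.22 ± 0.64 TPM in mutants and 5.42 ± 3.30 TPM in *aldh2.1*+/+ larvae (SD, n = 5).

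The neighbouring *sult1st1*, the most abundant sult1 gene, did not share that order. It was at 10.0, 5.56, 6.44, 3.54 and 3.31 TPM in mutants and at 3.78, 4.67, 5.48, 2.38 and 3.76 TPM in *aldh2.1*+/+ larvae, where clutch 3 and not clutch 1 was the highest (log2 fold change 0.43 ± 0.28, SE, edgeR adjusted p = 0.921). *sult1st6* was at 5.77, 4.47, 4.58, 3.32 and 3.19 TPM in mutants and at 7.78, 7.34, 4.11, 3.58 and 4.51 TPM in *aldh2.1*+/+ larvae, with *aldh2.1*+/+ clutches 1 and 2 above the rest (log2 fold change -0.41 ± 0.21, SE, edgeR adjusted p = 0.921). *sult1st5* was at 1.49, 0.773, 1.06, 0.831 and 1.49 TPM in mutants and at 0.616, 1.09, 0.565, 0.716 and 0.372 TPM in *aldh2.1*+/+ larvae. Here 4 of the 5 *aldh2.1*+/+ libraries lay below all mutant libraries and clutch 2 lay among them (log2 fold change 0.64 ± 0.30, SE, edgeR unadjusted p = 0.0535, adjusted p = 0.921, exact permutation p = 0.0476). Its mean estimated count of 14.3 was the lowest of the tested genes. The counts were 23, 13, 16, 14 and 22 in mutants and 10, 17, 10, 12 and 6 in *aldh2.1*+/+ larvae.

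*sult6b1* was the most abundant gene with an unadjusted p under 0.05. It was at 25.9, 17.4, 23.3, 20.1 and 16.1 TPM in mutants and at 39.6, 33.4, 23.6, 18.6 and 22.4 TPM in *aldh2.1*+/+ larvae. Again *aldh2.1*+/+ clutches 1 and 2 were above every mutant library and the other 3 overlapped with them. The log2 fold change was -0.48 ± 0.18 (SE), with an unadjusted p of 0.0234, an adjusted p of 0.921 in edgeR, and an exact permutation p of 0.0714. With 1 library left out, the unadjusted edgeR p ran from 0.00502 (without *aldh2.1*+/+ clutch 5) to 0.0626 (without *aldh2.1*+/+ clutch 1). Its estimated counts were whole in all 10 libraries.

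**Figure D5:**
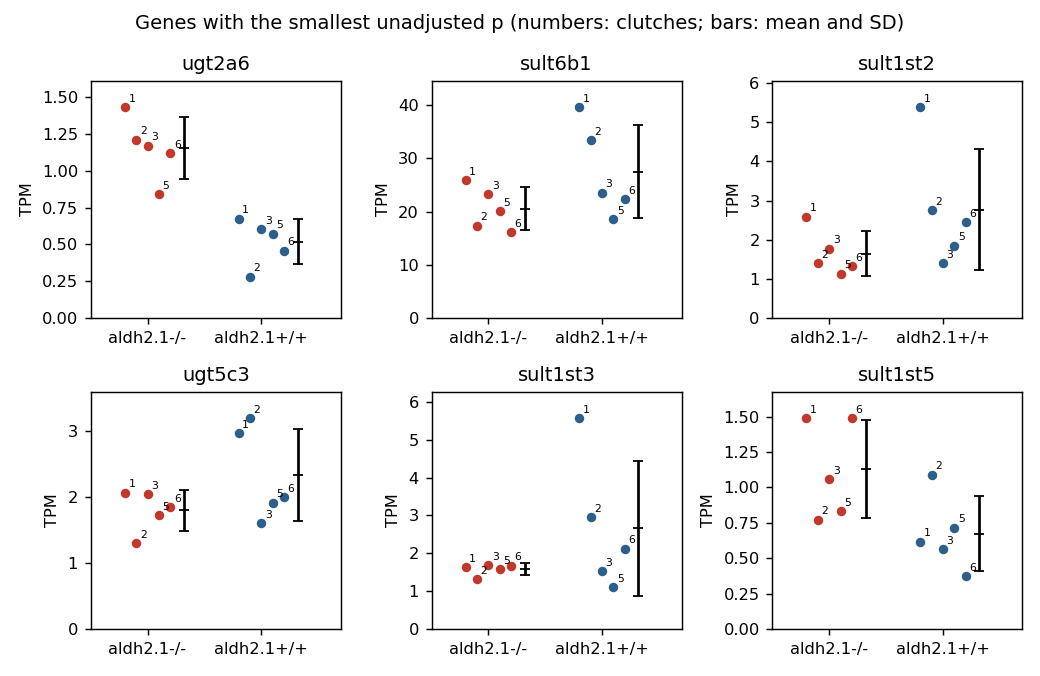
TPM per library of the 6 genes with the smallest unadjusted p, with clutch numbers beside the points and the mean ± SD of each genotype (n = 5) as black bars. The genotypes are separated only for *ugt2a6*. For *sult6b1*, *sult1st2*, *sult1st3* and *ugt5c3* the highest points are *aldh2.1*+/+ clutches 1 and 2, and for *sult1st5* clutch 2 of *aldh2.1*+/+ overlaps with the mutants.

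The sult2 genes belong to the family that sulfates hydroxysteroids. The most abundant of them, *sult2st2*, was at 31.2, 20.7, 21.5, 10.8 and 10.6 TPM in mutants and at 25.4, 16.7, 13.0, 8.80 and 16.5 TPM in *aldh2.1*+/+ larvae. The values spanned about the same range in both genotypes, high in clutch 1 and lowest in clutch 5 or 6, with a log2 fold change of 0.16 ± 0.30 (SE, edgeR adjusted p = 0.951) that turned to -0.04 without mutant clutch 1. *sult2st1*, named after its values were seen, lies next to it in RefSeq and was at 3.77 ± 1.21 TPM in mutants and 2.75 ± 0.43 TPM in *aldh2.1*+/+ larvae (SD, n = 5, log2 fold change 0.41 ± 0.20, SE, edgeR adjusted p = 0.921). Neither gene had a whole count in any library, and their summed level was 22.7 ± 9.67 TPM against 18.8 ± 6.23 TPM (SD, n = 5).

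*sult3st2*, the most abundant of 5 sult3 genes, was at 1.22, 1.15, 0.82, 0.783 and 0.687 TPM in mutants and at 1.62, 1.69, 0.833, 0.463 and 0.865 TPM in *aldh2.1*+/+ larvae, a log2 fold change of -0.26 ± 0.33 (SE). *sult4a1*, a brain sulfotransferase in mammals, had the smallest spread between clutches of the 32 genes. It was at 25.0, 21.3, 27.6, 24.3 and 26.4 TPM in mutants and at 24.3, 28.9, 23.1, 20.8 and 26.8 TPM in *aldh2.1*+/+ larvae, with a log2 fold change of -0.03 ± 0.08 (SE, edgeR adjusted p = 0.96) and no high value in either clutch 1. Neuron markers were as even between libraries, at 1447 ± 113 TPM in mutants and 1410 ± 125 TPM in *aldh2.1*+/+ larvae (SD, n = 5).

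Reads shared between genes limit how far single UGT genes can be read. By an exact check, 16 of the 19 tested UGT genes had no whole count in any library. This was so for 3 of 13 tested SULT genes and for 8381 of all 21532 genes tested. The check also scores a count a rounding error away from whole as not whole. *ugt1a1* is among the 16 although its counts were whole as listed (933, 608, 634, 580 and 598 in mutants). The 16 and the 8381 can therefore overstate the genes with shared reads. RefSeq places 29 of the 45 genes it names in 8 groups of near neighbours, and 5 of the 6 ugt1b genes named there share a boundary of their gene models. RefSeq also holds 17 further symbols of these families, most of them ugt1a, ugt1b, ugt2 and ugt5a genes. They have no identifier in the name table, so their levels were not analysed separately here.

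The genes around the reactions were examined through lists of cofactor supply, conjugate hydrolysis, conjugate transport, transcriptional regulators and target genes of the aryl hydrocarbon receptor. The transport list held ABC transporters (abcb, abcc and abcg genes) and slco and slc10 carriers, and was not sorted into export and uptake. Of 136 genes on these lists 127 were tested, with 75 above and 52 below 0, and none passed the adjusted threshold in edgeR. An unadjusted p under 0.05 was reached by 7 genes (5.51%, near the 5.04% of all genes). That count was 19 without mutant clutch 5, 3 without mutant clutch 1 or 3, and 4 without *aldh2.1*+/+ clutch 1, 2 or 3. Over all genes tested, 2651 were marked without mutant clutch 5, and 788 and 904 without mutant clutches 1 and 3. Leaving out *aldh2.1*+/+ clutch 1, 2 or 3 marked 808, 826 and 986 of all genes. In cofactor supply, 15 of 22 genes were above 0, with a median log2 fold change of 0.14. The 2 at an unadjusted p under 0.05 were *slc35b2*, the transporter of PAPS into the Golgi, at 3.88 ± 0.82 TPM in mutants and 3.01 ± 0.29 TPM in *aldh2.1*+/+ larvae (SD, n = 5), with a log2 fold change of 0.29 ± 0.12 (SE), and 1 of 2 genes listed as *cth*, the cystathionine gamma-lyase of cysteine synthesis, with a mean of 24.8 TPM and a log2 fold change of -0.15 ± 0.07 (SE). The other gene listed as *cth*, at a mean of 0.558 TPM, had a log2 fold change of 0.07 ± 0.44 (SE, unadjusted p = 0.875, edgeR).

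Of the 19 tested genes of conjugate hydrolysis 11 were above 0, and 1 had an unadjusted p under 0.05, *sulf2a*, which removes sulfate from heparan sulfate outside the cell (0.17 ± 0.08, SE, log2 fold change). Conjugate transport had 15 of 27 genes above 0 and none at an unadjusted p under 0.05, and its smallest p belonged to the prostaglandin transporter *slco2a1* (log2 fold change 0.46 ± 0.23, SE, unadjusted p = 0.0704, edgeR).

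Among regulators, 29 of 49 were above 0. The retinoid X receptors *rxrga* and *rxrgb* had log2 fold changes of -0.25 ± 0.10 and -0.25 ± 0.11 (SE), the lipid sensor *pparaa* -0.35 ± 0.15 (SE), and the endoderm factor *foxa1* 0.26 ± 0.09 (SE), all with an unadjusted p under 0.05 and an adjusted p of 0.921 in edgeR. The 12 target genes of the aryl hydrocarbon receptor, the sensor through which many planar compounds induce UGT genes, had 6 above and 6 below 0 and none at an unadjusted p under 0.05. The target *cyp1a* had no match in the name table and was not analysed here, and the symbol *sox9b* matched 2 genes listed as SOX9, which both count among the 12. Symbols of the regulator list, such as *vdra* and *pparda*, likewise matched several genes listed under the same name. Among the 12 target genes, the smallest p was that of the receptor's repressor *ahrrb*, which is also on the regulator list. It was at 0.496 ± 0.14 TPM in mutants and 0.845 ± 0.746 TPM in *aldh2.1*+/+ larvae (SD, n = 5), with a log2 fold change of -0.79 ± 0.53 (SE, unadjusted p = 0.164, edgeR).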

How the data were processed

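Libraries of whole larvae were sequenced on the BGISEQ-500 platform. According to the submitters' processing notes, Trim Galore 0.6.4, kallisto 0.4.6 and the zebrafish build GRCz11 were used. For each library the authors deposited an expected count per gene, which is the quantifier's raw estimate, and its TPM value, which is divided by length and brought to a common total. Symbols come from a table that names 29201 of the 32520 identifiers and mixes human and zebrafish forms. RefSeq names (assembly GRCz12tu) were matched by symbol for 45 of the 48 genes and used for names and neighbours.

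Expected counts were rounded and compared in R 4.3.3 with edgeR 4.0.16, using TMM factors, filterByExpr, the robust quasi-likelihood test without a block, and Benjamini-Hochberg adjustment over all 21532 genes with a threshold of 0.05. Exact permutation tests were two-sided and used log2 CPM (prior count of 2). No overlap means that the log2 CPM ranges of the genotypes are disjoint. A summed level is the sum of TPM over a list in 1 library. Alternatives were DESeq2 1.42.0, no TMM factors, other filters, limma 3.58.1 on log2 TPM with a pseudocount of 1 or of 0.1, clutch number as a block, a minimum fold change and leaving out each library. The fits were tested on simulated data. Figures were drawn with matplotlib 3.10.9 under Python 3.11.15.

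The members, lists and tests were chosen with earlier results of these data known. Genes named are the most abundant of each subfamily, the 8 most abundant, those at an unadjusted p under 0.05 (or the 6 smallest), those without overlap, the extreme fold changes at a mean of at least 50 normalized counts, the widest spread, and in each pathway list those at an unadjusted p under 0.05 or the smallest. Any pair of libraries of a genotype differed by more than sampling of reads gives (chi-square divided by its degrees of freedom, 7.12 or more). Sequences of these genes were not used here.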

Additional observations from a re-analysis of the deposited data

Results flagged for a closer look

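Some libraries stood far from the other 4 of their genotype, by a gap of more than 0.71 of the whole range (Dixon's criterion). Of 60 groups of 5 libraries examined, 7 were marked, where chance marks about 1 in 20 groups. Mutant clutch 1 accounted for 5 of them. *ugt1a1* was at 33.9 TPM there against 17.6 to 21.5 TPM in the other mutant libraries, *ugt2b1* at 3.96 against 1.24 to 1.93 TPM, *ugt5b4* at 6.45 against 3.92 to 4.39 TPM, and *ugt5g1* at 1.15 against 0.458 to 0.538 TPM. The hepatocyte marker sum of the same library was 1120 TPM against 681 to 785 TPM. In *aldh2.1*+/+ clutch 1, *ugt5d1* was at 1.13 TPM against 0.414 to 0.609 TPM. The untested gene *sult5a1* was at 0.152 TPM in mutant clutch 3 against 0.0282 to 0.0599 TPM, at very low counts.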

How the results depend on the processing

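No conjugation gene passed the adjusted threshold under any of the 18 other settings. The number at an unadjusted p under 0.05, 5 as reported, was 2 with limma at either pseudocount and 3 without both libraries numbered 1 (chosen after seeing the data), and ran from 1 to 6 when 1 library was left out. Over all genes tested the same number was 1086 in the main fit, 887 and 886 with limma at pseudocounts 1 and 0.1, and 640 without both libraries numbered 1. It ran from 788 to 2651 when 1 library was left out. The number with a log2 fold change above 0 was 26 of 48 with DESeq2 or without the filter, which test all 48 genes. The number of pathway genes at an unadjusted p under 0.05, 7 as reported, was 3 with limma at either pseudocount and 1 without both libraries numbered 1, and ran from 3 to 19 when 1 library was left out. It was 19 without mutant clutch 5, when 48 genes of the whole table passed the adjusted threshold and 2651 the unadjusted one. The causes were not tested.

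Equal clutch numbers were not used as pairs, because the rule set for pairing was not met. It required a correlation over 0.1, across all tested genes, between the deviations of every same-numbered pair. The correlations ran from -0.13 to 0.11. Whether same-numbered clutches share a day or a parent is not known. With the number as a replicate block, 0 conjugation genes passed the adjusted threshold, 4 had an unadjusted p under 0.05, 15 were above 0, and 4 pathway genes had an unadjusted p under 0.05. Over all 21532 genes tested, the same fit called 1 at the adjusted threshold and marked 923 at an unadjusted p under 0.05.

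Fold changes near 0 changed sign. *ugt1b5* (-0.02) was 0.00045 with library size alone, 0.0057 and 0.0054 with limma at pseudocounts 1 and 0.1, 0.073 without both libraries numbered 1, and -0.14 to 0.051 with 1 library left out. *sult4a1* was 0.01 with limma at both pseudocounts (0.0131 and 0.0137) and -0.083 to 0.0063 with 1 library left out. *ugt5b4* was 0.0139 and 0.0148 with limma and -0.13 to 0.0072 with 1 library left out. *ugt5g1* was -0.10 without both libraries numbered 1. Leaving out 1 library gave -0.25 to 0.16 for *ugt5g1*, -0.043 to 0.39 for *sult2st2*, -0.081 to 0.21 for *ugt1a1*, -0.32 to 0.00050 for *ugt5f1* and -0.14 to 0.22 for *ugt2a7*. The other named genes kept their sign wherever they were tested. *ugt2a6*, *sult1st5* and *ahrrb* were not tested when at least 10 counts were required in every library. *aldh2.1* passed the adjusted threshold with DESeq2 and without mutant clutch 2 (-1.53, edgeR adjusted p = 0.00688). The summed UGT and SULT levels moved by less than their spread under each alternative tried for them.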
